A study of Homo sapiens with 20 samples.

Results

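The miR-99/100 and miR-125 families were followed through 6 mature microRNAs (miRNAs), miR-99a-5p, miR-99b-5p, miR-99b-3p, miR-100-5p, miR-125a-5p and miR-125b-5p, of 2588 mature miRNAs in the count tables. They were chosen by name, and where a name was listed under several hairpins the copy with the highest total was kept. Small RNA was sequenced from 2 human cell lines, HEK293E, an embryonic kidney line, and HCT116, a colon cancer line, in 20 libraries of 8 groups. In both lines DROSHA had been knocked out (KO), and the KO cells had been rescued with DROSHA-p140, a shorter form of the protein, or with full-length DROSHA, with 3 libraries per form and line. HCT116 also gave 1 library of KO cells with GFP, 1 library of wild-type (WT) cells with no treatment, and 3 libraries each of WT cells kept for 72 hr at 0.1% or at 9.1% fetal bovine serum (FBS). The rescued cells of both lines and the GFP cells thus share the loss of endogenous DROSHA, and the serum groups share WT DROSHA. The labels do not say whether the KO cells were 1 clone, how strongly each form was expressed, or whether replicates came from separate cultures, so a p-value here weighs only the spread among these libraries, which may be technical.

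DROSHA, the nuclear RNase III of the Microprocessor, cuts miRNA hairpins out of their primary transcripts, and many of these hairpins lie in introns. The cut hairpin is trimmed by DICER to a duplex of a 5p and a 3p arm, and the arm that stays in Argonaute pairs with target mRNAs mainly through its seed, bases 2 to 8. Members of miR-99/100 and miR-125 lie beside a let-7 gene in 3 clusters that arose by duplication. In animals the miR-125 family is the counterpart of lin-4, and miR-99/100 members are known to target MTOR. miR-100 and miR-125b are made from the same long non-coding transcript, as are miR-99a and the other copy of miR-125b.

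The mature sequences are shown because they give the shared seed of each family and the bases by which its members can be told apart. They are RefSeq sequences on GRCh38.p14, 5′ to 3′, with the seed in capitals, and all 6 members matched RefSeq by name and by the coordinates in the files.
miR-99a-5p: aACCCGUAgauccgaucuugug
miR-100-5p: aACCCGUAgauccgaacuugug
miR-99b-5p: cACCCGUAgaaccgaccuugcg
miR-99b-3p: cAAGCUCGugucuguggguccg
miR-125a-5p: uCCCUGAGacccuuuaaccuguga
miR-125b-5p: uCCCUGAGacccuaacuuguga
miR-125b-1-3p: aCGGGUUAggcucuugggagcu
miR-125b-2-3p: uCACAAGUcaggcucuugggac
The seed ACCCGUA was shared by miR-99a-5p, miR-99b-5p and miR-100-5p, which were all 3 RefSeq miRNAs with it. Counting from 1 at the 5′ end, miR-100-5p differs from miR-99a-5p by the single substitution U16A, and miR-99b-5p differs from miR-99a-5p by A1C, U11A, U16C and U21C. miR-125a-5p and miR-125b-5p share the seed CCCUGAG and their first 13 bases. The only other RefSeq miRNA with that seed, miR-4319, averaged at most 1.09 CPM (miRNA reads with every library brought to the same total) in any group. miR-125b-5p is made from 2 hairpins with the same mature sequence, so its own reads cannot be given to 1 locus, and the lower of its 2 listed copies held 99.8% of the higher. The other arms of those hairpins, miR-125b-1-3p and miR-125b-2-3p, differ at 17 positions and were counted apart. They are shown because they are the reads that separate the 2 loci.

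All hairpins of the families lay in introns of a host on the same strand, per the GENCODE 29 gene models of hg38. The mature miR-99b-5p (chr19:51692618-51692639, + strand) and miR-125a-5p (chr19:51693268-51693291, + strand) lay in an intron of SPACA6, with let-7e between their hairpins, 104 bases after MIR99B and 389 bases before MIR125A. On the opposite strand the 3 hairpins overlapped an exon of the long non-coding SPACA6P-AS. miR-100-5p (chr11:122152275-122152296, - strand) and the miR-125b-1 copy of miR-125b-5p (chr11:122099809-122099830, - strand) lay in introns of the non-coding MIR100HG. let-7a-2 lay between those hairpins, 5635 bases from MIR100 and 46677 bases from MIR125B1. miR-99a-5p (chr21:16539101-16539122, + strand) and the miR-125b-2 copy (chr21:16590253-16590274, + strand) lay in introns of the non-coding MIR99AHG, with let-7c 658 bases from MIR99A. The hairpins at the ends of the chromosome 19 cluster are the neighbours whose reads moved apart below. Their 5p and 3p arms are in capitals.
MIR99B: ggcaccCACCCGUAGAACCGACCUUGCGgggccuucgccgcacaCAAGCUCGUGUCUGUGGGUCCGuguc
MIR125A: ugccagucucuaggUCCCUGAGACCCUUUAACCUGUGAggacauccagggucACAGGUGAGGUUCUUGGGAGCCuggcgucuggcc

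Libraries held 38288 reads (KO with GFP) to 2822317 reads (0.1% FBS), with 135085 to 335803 in rescued HEK293E cells and 305603 to 873717 in rescued HCT116 cells. The members took 1.11% to 2.26% of the reads of rescued cells, 0.418% with GFP, 3.03% in untreated WT, 4.11% to 5.14% in 0.1% FBS and 2.66% to 3.51% in 9.1% FBS. A list of 16 miRNAs taken as DROSHA-independent, which was not tested for each of them, took 69.7% of reads with GFP. It took 15.5% to 20.0% with p140 and 10.6% to 12.3% with full-length DROSHA in HEK293E, 7.03% to 21.02% with p140 and 2.74% to 4.98% with full-length DROSHA in HCT116, and at most 1.35% in WT. A list of 5 marker miRNAs of colon epithelium (miR-200c-3p, miR-141-3p, miR-192-5p, miR-194-5p and miR-215-5p) summed to 260 to 487 CPM in rescued HCT116 cells, 427 to 605 CPM in the kidney line HEK293E, 4100.5 CPM with GFP and 30574 to 38467 CPM in WT HCT116 cells, so the rescued cells carried few reads of the miRNAs that define their label. In such bulk samples fewer cells of a type and less RNA per cell cannot be told apart. Markers of blood, muscle, nerve, liver and fibroblasts (17 miRNAs) summed to 1723 to 3059 CPM in HEK293E, 353 to 636 CPM in rescued HCT116 and 2372 to 3982 CPM in WT HCT116. Replicate 3 stood apart from replicates 1 and 2 in the HCT116 groups with 3 libraries.

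Of the members with the seed ACCCGUA, miR-99b-5p was present in both lines, while miR-99a-5p and miR-100-5p each stood high in 1 line and low in the other. With full-length DROSHA miR-99b-5p averaged 4470 ± 1702 CPM in HEK293E and 2410 ± 552 CPM in HCT116 (SD, n = 3 each). With full-length DROSHA, miR-99a-5p had 2965, 4525 and 3448 CPM in HEK293E, against 3.78, 9.16 and 27.5 CPM in HCT116. miR-100-5p had 196, 249 and 188 CPM in HEK293E, against 12076, 12281 and 10238 CPM in HCT116. Neither member's groups overlapped, and the order of the lines was opposite for the 2 miRNAs. How many of all miRNAs had groups without overlap was not counted, here or in the comparisons below. With p140 the same held, with 2095, 2015 and 2207 CPM of miR-99a-5p in HEK293E against 9.77, 16.4 and 9.17 CPM in HCT116. miR-100-5p had 207, 189 and 142 CPM in HEK293E with p140, against 9761, 9820 and 10654 CPM in HCT116.

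A mature miRNA is short enough to be read whole, so reads were compared between members with no scaling for length. The shares and ratios given here are of reads and need not be those of molecules. miR-100-5p made up 7.56% of miR-100-5p and miR-99a-5p reads together in HEK293E with p140 and 5.42% with full-length DROSHA, against 99.9% in HCT116 with either form. The exact Clopper-Pearson 95% intervals were 6.18% to 9.13% and 4.65% to 6.29% in HEK293E, for summed reads of 3 libraries each and for counting error only. Because the 2 sequences differ at 1 base and the rule for mismatched reads is not given in the sources used here, low counts of either beside high counts of the other are uncertain.

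The 3p arms of miR-125b, which differ at 17 positions, gave the same split. miR-125b-1-3p of chromosome 11 held 5 of 159 3p-arm reads in HEK293E with p140 (3.14%, exact 95% interval 1.03% to 7.19%) and 2 of 255 with full-length DROSHA (0.784%, 0.095% to 2.80%). In HCT116 it held 212 of 212 with p140 (100%, 98.3% to 100%), and 646 of 655 with full-length DROSHA (98.6%, 97.4% to 99.4%). Of the 9 miR-125b-2-3p reads in those HCT116 libraries 8 came from replicate 3, the library that also held 21 of their 32 miR-99a-5p reads. miR-100-3p had 0 reads in all 6 HEK293E libraries, where 3 reads would be 8.93 to 22.2 CPM, and 32 to 141 reads in the rescued HCT116 libraries. let-7a-2-3p, the other arm of the let-7 between miR-100 and miR-125b-1, had 0 reads in 5 HEK293E libraries and 1 read in the sixth, against 14 to 104 reads in rescued HCT116. From chromosome 21, miR-99a-3p had 5 to 42 reads in the HEK293E libraries, against 0 in all 6 rescued HCT116 libraries, and let-7c-3p had 4 to 18 reads against 0 to 2.

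**Figure D1:**
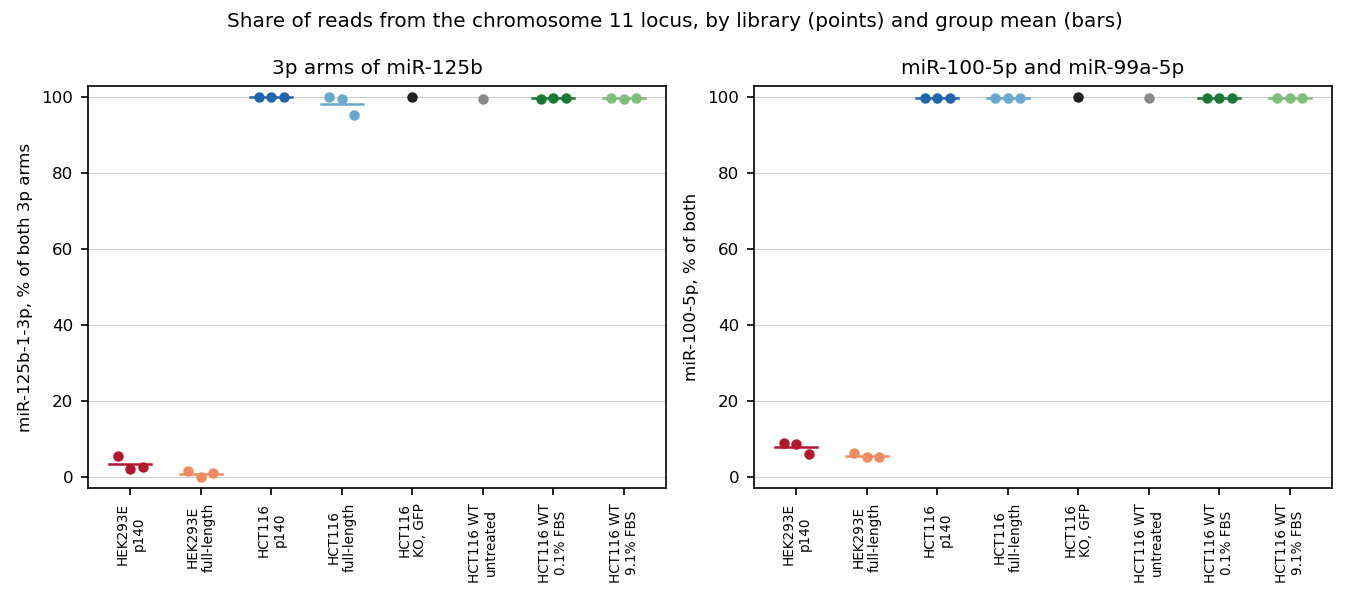
Share of reads from the chromosome 11 locus (vertical axis, %) in every library, for the 3p arms of miR-125b on the left and for miR-100-5p among miR-100-5p and miR-99a-5p on the right. Points are libraries and bars are group means. HEK293E libraries lie below 10%, and HCT116 libraries, rescued, knocked out with GFP or wild type, lie above 95%. The GFP point on the left rests on 4 reads (exact 95% interval 39.8% to 100%).

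edgeR's quasi-likelihood test with TMM scaling (which sets libraries to equal levels for the bulk of miRNAs) called 3 of 6 members different between the lines with full-length DROSHA, at an adjusted p under 0.05, 1 higher and 2 lower in HEK293E. Of all 515 tested miRNAs 61.9% were called, 34.6% higher and 27.4% lower. miR-99a-5p had a log2 fold change of 7.06 ± 0.42 (SE, adjusted p = 1.3e-09) in HEK293E over HCT116, miR-100-5p -6.80 ± 0.21 (adjusted p = 4.0e-13) and miR-125b-5p -1.58 ± 0.15 (adjusted p = 2.2e-07). With p140 the values were 6.55 ± 0.46 (adjusted p = 1.1e-08), -6.73 ± 0.21 (5.8e-13) and -1.49 ± 0.15 (5.5e-07), with 3 of 6 members called against 55.3% of all miRNAs (27.6% higher and 27.8% lower). Without the replicates numbered 3, the first of these values, miR-99a-5p with full-length DROSHA, became 8.02. The let-7 partners of the chromosome 21 and 11 clusters followed their clusters in direction. let-7c-5p had 3.38 ± 0.23 (adjusted p = 7.4e-09) with full-length DROSHA and let-7a-5p, which has further copies on other chromosomes, had -1.93 ± 0.15 (adjusted p = 2.7e-08).

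The chromosome 19 members were not called between the lines. With full-length DROSHA the sign of their difference rests on the scaling, and with p140 that of miR-125a-5p does. With full-length DROSHA miR-99b-5p had a log2 fold change of -0.15 ± 0.25 in HEK293E over HCT116 (adjusted p = 0.63), miR-99b-3p -0.16 ± 0.25 (0.60) and miR-125a-5p -0.02 ± 0.18 (0.91). With p140 the values were 0.62 ± 0.26 (0.053), 0.58 ± 0.29 (0.10) and -0.31 ± 0.18 (0.15). Both miR-99b arms kept their sign with p140 in all 20 alternatives, and miR-99b-5p passed in 13 of them. let-7e-5p of the same cluster was lower in HEK293E with full-length DROSHA (-0.59 ± 0.18, adjusted p = 0.010) and not called with p140 (-0.31 ± 0.18, adjusted p = 0.16). Scaling to library totals raised the median of all miRNAs by 1.02 with full-length DROSHA and by 0.92 with p140, and under it the 3 members stood at 0.89, 0.87 and 0.99 with full-length DROSHA and passed the test. In CPM miR-99b-5p had 3112, 6379 and 3919 in HEK293E, against 2787, 2668 and 1776 in HCT116, and these ranges did not overlap. miR-125b-5p, the sum of both loci, had 3153, 4216 and 3696 CPM in HEK293E with full-length DROSHA, against 5581, 5421 and 5276 CPM in HCT116. The line, its culture and its libraries cannot be told apart here.

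**Figure D2:**
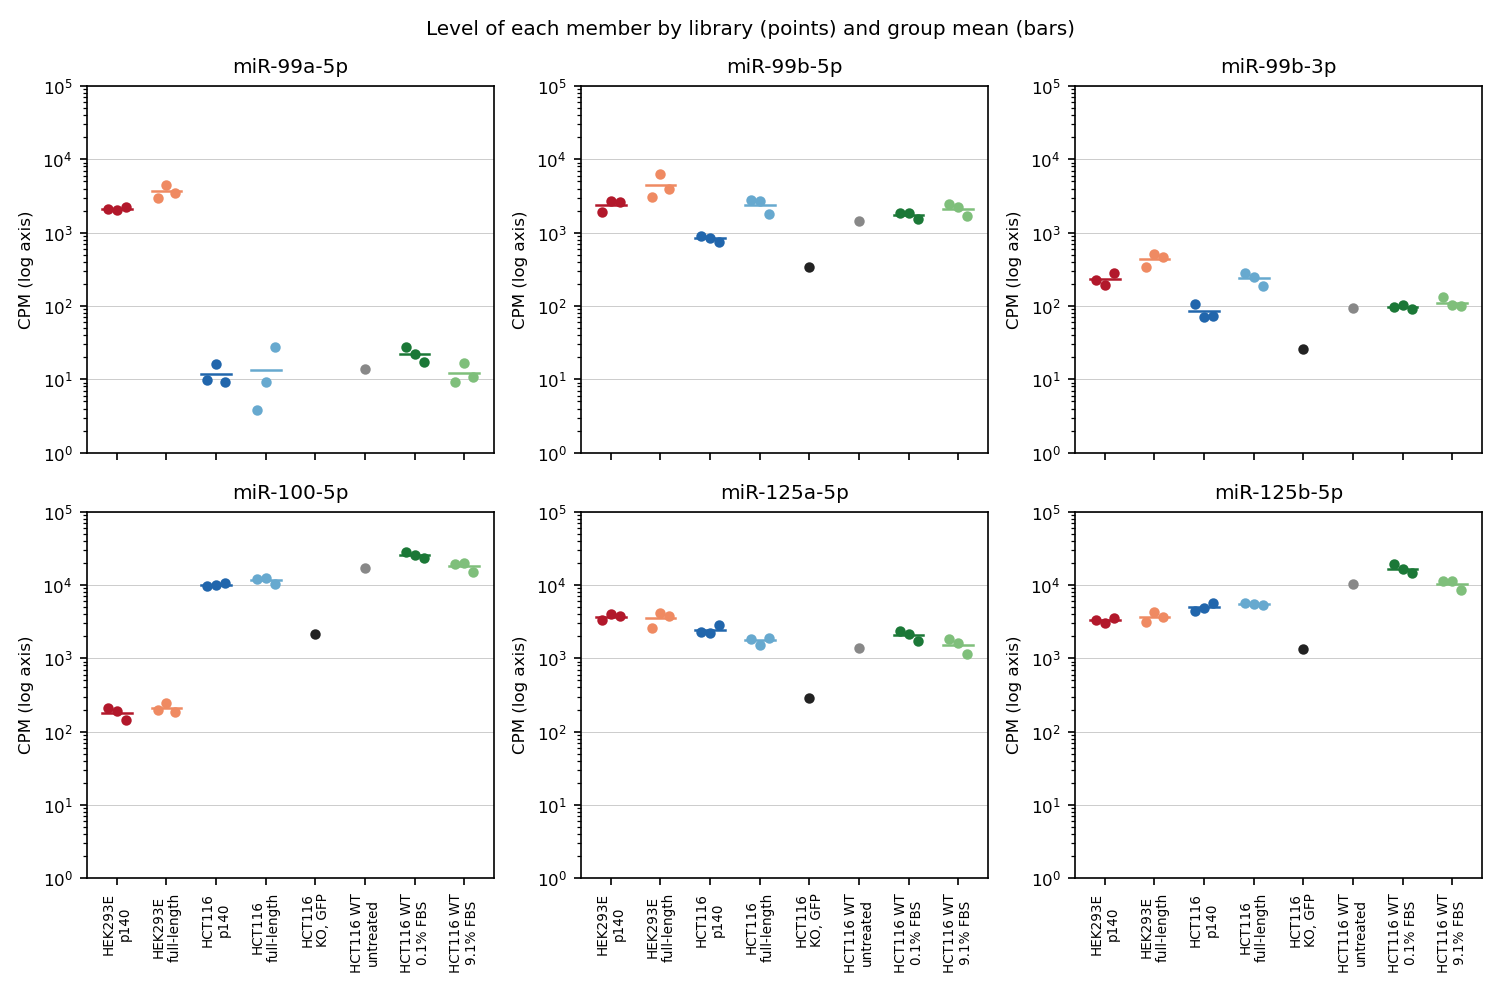
CPM (logarithmic vertical axis) of each member in every library of the 8 groups, with points for libraries and bars for group means. miR-99a-5p is at 2015 CPM or more in HEK293E and at 27.7 CPM or less in HCT116, miR-100-5p runs the other way, and miR-99a-5p had 0 reads with GFP and is not drawn there.

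Within HCT116 cells p140 gave less of both arms of miR-99b than full-length DROSHA, while miR-125a-5p and let-7e-5p from the same SPACA6 intron were not called lower. miR-99b-5p had 915, 838 and 755 CPM with p140, against 2787, 2668 and 1776 CPM with full-length DROSHA, a log2 fold change of -1.60 ± 0.20 (edgeR, adjusted p = 9.2e-04). miR-99b-3p had 107, 72.0 and 73.4 CPM with p140, against 284, 249.5 and 187 CPM with full-length DROSHA (-1.58 ± 0.28, adjusted p = 0.0034). The groups of neither arm overlapped, which was not counted for all miRNAs. miR-125a-5p had 2308, 2205 and 2844 CPM with p140, against 1847, 1497 and 1907 CPM with full-length DROSHA, all above the full-length libraries, and its log2 fold change of 0.39 ± 0.15 did not pass (adjusted p = 0.053).

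No other member passed between the 2 forms in HCT116. miR-100-5p had a log2 fold change of -0.28 ± 0.11 (adjusted p = 0.054) and miR-125b-5p one of -0.22 ± 0.11 (adjusted p = 0.14), and miR-99a-5p was too low to be tested. In all 2 of 5 tested members were called, both lower, where 59.6% of 446 miRNAs were called, 31.2% lower and 28.5% higher. The median of the 5 was -0.28, against -0.11 for all miRNAs. With the replicate number as a block 326 of all miRNAs were called in place of 266, and all 5 members passed, with miR-100-5p at -0.27 (adjusted p = 0.0065), miR-125a-5p at 0.40 (0.0040) and miR-125b-5p at -0.22 (0.035). Without p140 replicate 3, when 388 of all miRNAs were called, the calls among members were 4, both miR-99b arms, miR-100-5p at -0.37 (adjusted p = 0.025) and miR-125b-5p at -0.36 (adjusted p = 0.022). Over all alternatives the adjusted p of these 3 ran from 0.0015 to 0.41, from 0.0040 to 0.78 and from 0.0063 to 0.52. Scaled to the list of DROSHA-independent miRNAs, whose share of reads was higher with p140, the median of all miRNAs dropped by 1.52 and miR-125a-5p turned to -1.15, so its direction rests on the scaling.

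In HEK293E cells the 2 arms of miR-99b were again lower with p140, and so was miR-99a-5p. miR-99b-5p had 1925, 2668 and 2650 CPM with p140, against 3112, 6379 and 3919 CPM with full-length DROSHA (-0.79 ± 0.24, edgeR adjusted p = 0.035). miR-99b-3p had 229.5, 194.5 and 284.5 CPM with p140, against 339, 507 and 467.5 CPM (-0.80 ± 0.23, adjusted p = 0.027). miR-99a-5p, the member of the miR-99/100 seed that this line makes from MIR99AHG, had 2095, 2015 and 2207 CPM with p140, against 2965, 4525 and 3448 CPM with full-length DROSHA (-0.70 ± 0.17, adjusted p = 0.010). None of these 3 pairs of groups overlapped, and how common this is among all miRNAs was not counted.

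miR-100-5p (-0.16 ± 0.26), miR-125a-5p (0.18 ± 0.18) and miR-125b-5p (-0.07 ± 0.15) were not called in HEK293E (adjusted p = 0.69, 0.51 and 0.78). That made 3 of 6 members called, all lower, where 26.4% of 416 miRNAs were called, 21.2% lower and 5.29% higher. Without full-length replicate 2, the library with 6379 CPM of miR-99b-5p, only miR-99a-5p was called, and miR-99b-5p stood at -0.51 (adjusted p = 0.075). DESeq2 and the joint fit of 18 libraries called 2 members each, DESeq2 without miR-99b-3p (adjusted p = 0.082) and the joint fit without miR-99a-5p (adjusted p = 0.12). Leaving out p140 replicate 1 or p140 replicate 2 also left miR-99a-5p alone, and leaving out the third library of either group cost 1 call. Over these single omissions 86 to 129 of all miRNAs were called, against 110 in the main fit. Without the replicates numbered 3, which leaves 2 libraries a group, no member was called, and the calls among all miRNAs fell too, as given below.

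The let-7 partners did not pass in either line. let-7e-5p, which lies between miR-99b and miR-125a, had -0.28 ± 0.17 in HCT116 and 0.08 ± 0.18 in HEK293E (adjusted p = 0.21 and 0.79). let-7c-5p had -0.02 ± 0.27 in HCT116 and -0.16 ± 0.18 in HEK293E, and let-7a-5p had 0.25 ± 0.13 and 0.34 ± 0.15, all with adjusted p above 0.12. Of the other arms 5 were tested in HCT116 and 3 in HEK293E, and 1 was called, let-7e-3p in HCT116 (-1.23 ± 0.31, adjusted p = 0.012). The uncalled arms in HCT116 were let-7a-2-3p (-0.71 ± 0.35), miR-125b-1-3p (-0.32 ± 0.22), miR-100-3p (-0.02 ± 0.37) and miR-125a-3p (0.51 ± 0.37), and in HEK293E miR-99a-3p (-0.81 ± 0.60), miR-125b-2-3p (-0.16 ± 0.20) and miR-125a-3p (0.59 ± 0.29). The p140 effect on miR-99b-5p was smaller in HEK293E than in HCT116 by 0.77 ± 0.36, and this difference was not called (adjusted p = 0.25). With a replicate block within each line it was called, at 0.78 ± 0.20 (adjusted p = 0.0032), and over all alternatives the adjusted p ran to 0.41. No other member's p140 effect was called different between the lines. For miR-99a-5p this test cannot decide, since its HCT116 libraries held 3 to 5 reads with p140 and 3 to 21 with full-length DROSHA. Of 515 miRNAs in this test 3.3% were called (2.14% higher and 1.17% lower in HEK293E) and 105 had an unadjusted p under 0.05. Without HCT116 p140 replicate 3 the called miRNAs were 85 in place of 17.

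**Figure D3:**
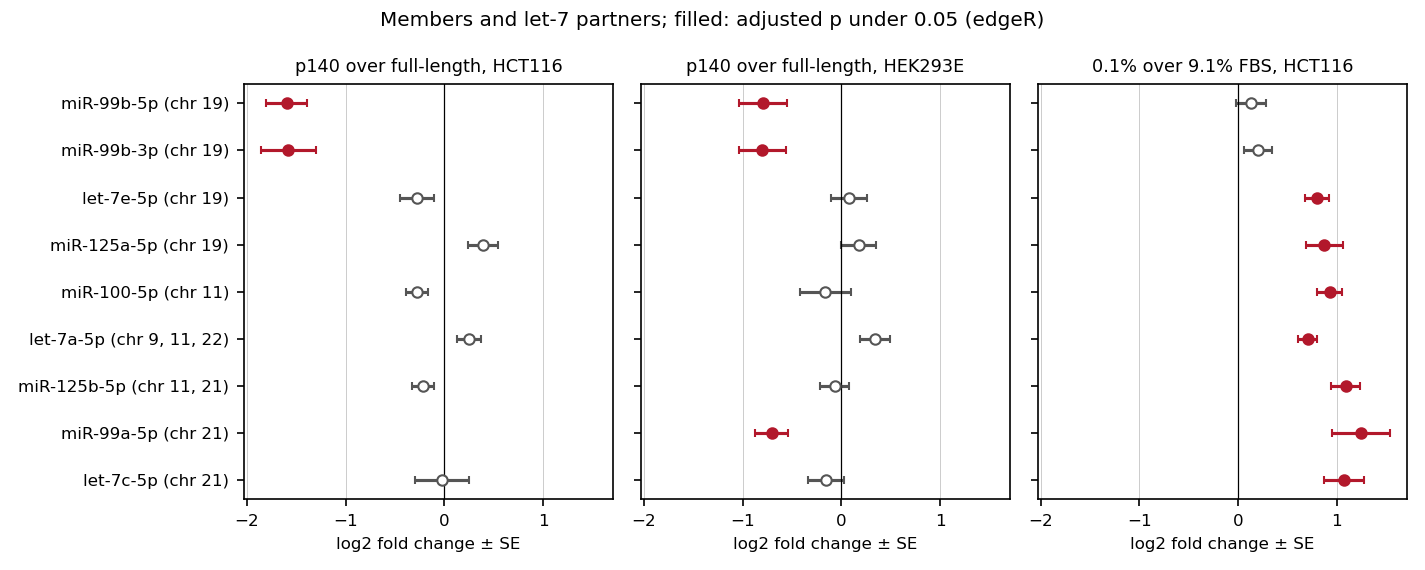
Log2 fold change ± SE (horizontal axis) of the members and their let-7 partners, with their chromosomes, for p140 over full-length DROSHA in HCT116 and HEK293E and for 0.1% over 9.1% FBS. Filled points passed an adjusted p of 0.05 in edgeR, and miR-99a-5p was not tested in rescued HCT116. The miR-99b arms are the lowest points in both p140 panels and the 2 uncalled points in the serum panel.

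Ratios of 2 miRNAs in 1 library need no scaling, and they separated miR-99b from its neighbours in both lines. The ratio of miR-99b-5p to miR-125a-5p was 0.396, 0.380 and 0.266 with p140 in HCT116, against 1.51, 1.78 and 0.931 with full-length DROSHA. In HEK293E it was 0.580, 0.665 and 0.700 with p140, against 1.19, 1.56 and 1.05 with full-length DROSHA. The groups did not overlap in either line. Each line alone cannot pass, since an exact two-sided permutation test of 3 against 3 libraries gives at least p = 0.1 (adjusted p = 0.25 over the 42 ratio tests).

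With labels permuted within each line and both lines pooled, a test added after the data were seen, the mean log2 difference of that ratio was -1.47 (exact permutation p = 0.005, the smallest possible, adjusted p = 0.015 over 6 ratios). The groups had already been seen not to overlap in either line, which fixes this p at its smallest. It therefore adds no support beyond that separation, and it treats the libraries as unpaired. With signs flipped within the 6 pairs of the same replicate number, also added later, the ratio was lower with p140 in 6 of 6 pairs and did not pass (exact permutation p = 0.031, the smallest possible, adjusted p = 0.094). The lack of overlap in both lines fixes this p at its smallest too, so it neither adds support nor shows an effect of pairing. The ratio of miR-99b-5p to let-7e-5p differed by -1.08 (p = 0.005 and adjusted p = 0.015 in the same exact test, and p = 0.031 and adjusted p = 0.094 within pairs). It was lower in every p140 library than in every full-length library of its line, so the same limits hold for its pooled p and its p within pairs. let-7e-5p over miR-125a-5p differed by -0.38 (exact p = 0.04, adjusted p = 0.08), with groups that overlapped in HEK293E. In HCT116 its groups did not overlap, at 0.655 to 0.749 with p140 against 1.01 to 1.21 with full-length DROSHA. The log2 difference there was -0.66 (exact permutation p = 0.1, adjusted p = 0.25), so let-7e-5p stood between miR-99b-5p and miR-125a-5p. let-7e-3p was also lower in HCT116 (-1.23), on 5 to 9 reads per p140 library. miR-100-5p over miR-125b-5p, from the chromosome 11 cluster, differed by -0.07 (exact p = 0.64, adjusted p = 0.76). In HCT116, where nearly all miR-125b came from that cluster, this ratio was 1.89 to 2.22 with p140 and 1.94 to 2.27 with full-length DROSHA. In HEK293E miR-99a-5p over miR-125b-5p was 0.618 to 0.661 with p140, against 0.933 to 1.07 with full-length DROSHA, without overlap (exact p = 0.1).

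**Figure D4:**
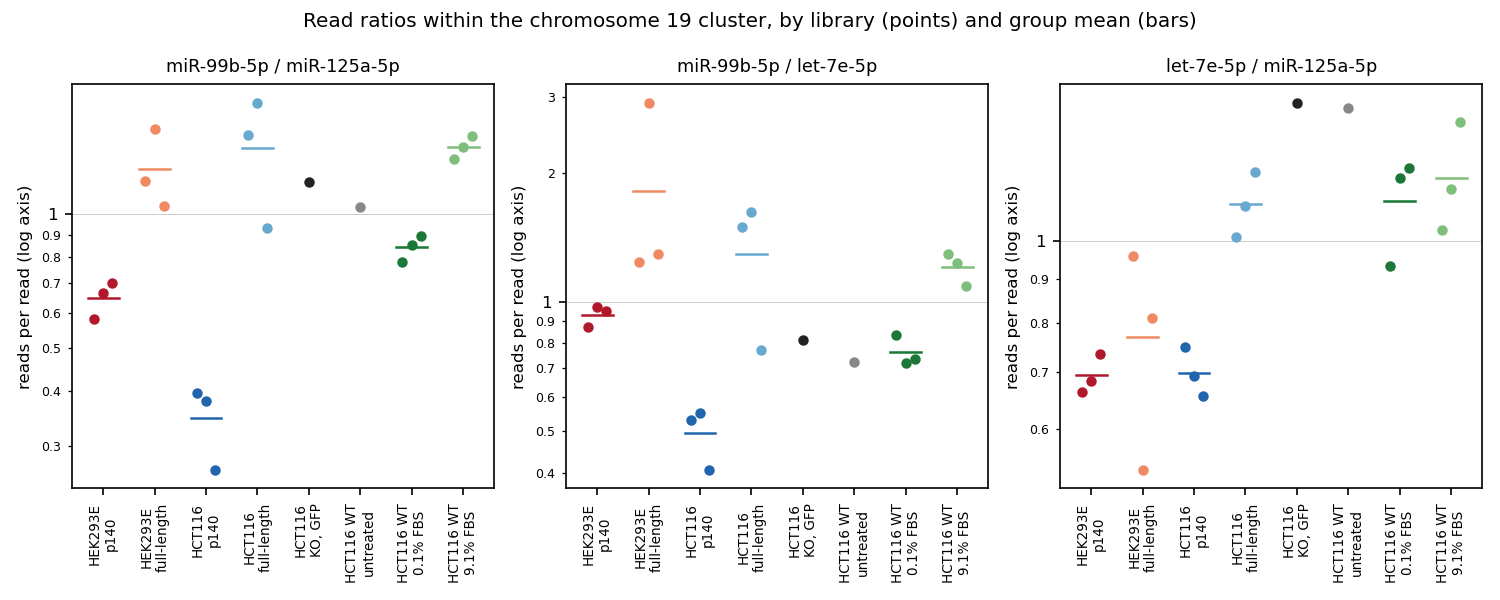
Reads of 1 member of the chromosome 19 cluster per read of another (logarithmic vertical axis), with points for libraries and bars for group means of the 8 groups. miR-99b-5p per miR-125a-5p is 0.266 to 0.396 with p140 in HCT116 and 0.580 to 0.700 with p140 in HEK293E, under every full-length library of the same line, and it is 0.780 to 0.895 in 0.1% FBS against 1.33 to 1.50 in 9.1% FBS.

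The 2 arms of the miR-99b hairpin moved together under p140. The ratio of miR-99b-5p to miR-99b-3p was 8.52 to 11.6 with p140 and 9.49 to 10.7 with full-length DROSHA in HCT116, and 8.39 to 13.7 with p140 and 8.38 to 12.6 with full-length DROSHA in HEK293E. Over both lines the log2 difference was 0.01 (exact permutation p = 0.91). Between rescued and WT cells the arm ratios of miR-99b and miR-125b-1 did not overlap, and those of miR-100 and miR-125a did, none of which was tested. miR-99b-5p over miR-99b-3p was at most 13.7 in all 12 rescued libraries, and 15.3 in the untreated WT library and 17.0 to 21.9 in the serum libraries. miR-125b-5p over miR-125b-1-3p was 18.4 to 24.6 in the 6 rescued HCT116 libraries, against 33.4 to 51.4 in the WT libraries of HCT116. miR-100-5p over miR-100-3p was 53.6 to 139 in rescued HCT116, against 104 to 266 in WT HCT116. The ratio of miR-125a-5p to miR-125a-3p overlapped between rescued and WT cells, at 31.9 to 38.3 with full-length DROSHA and 32.8 to 45.5 in 9.1% FBS. Medium, time, run and the rescue itself cannot be told apart in this contrast.

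**Figure D5:**
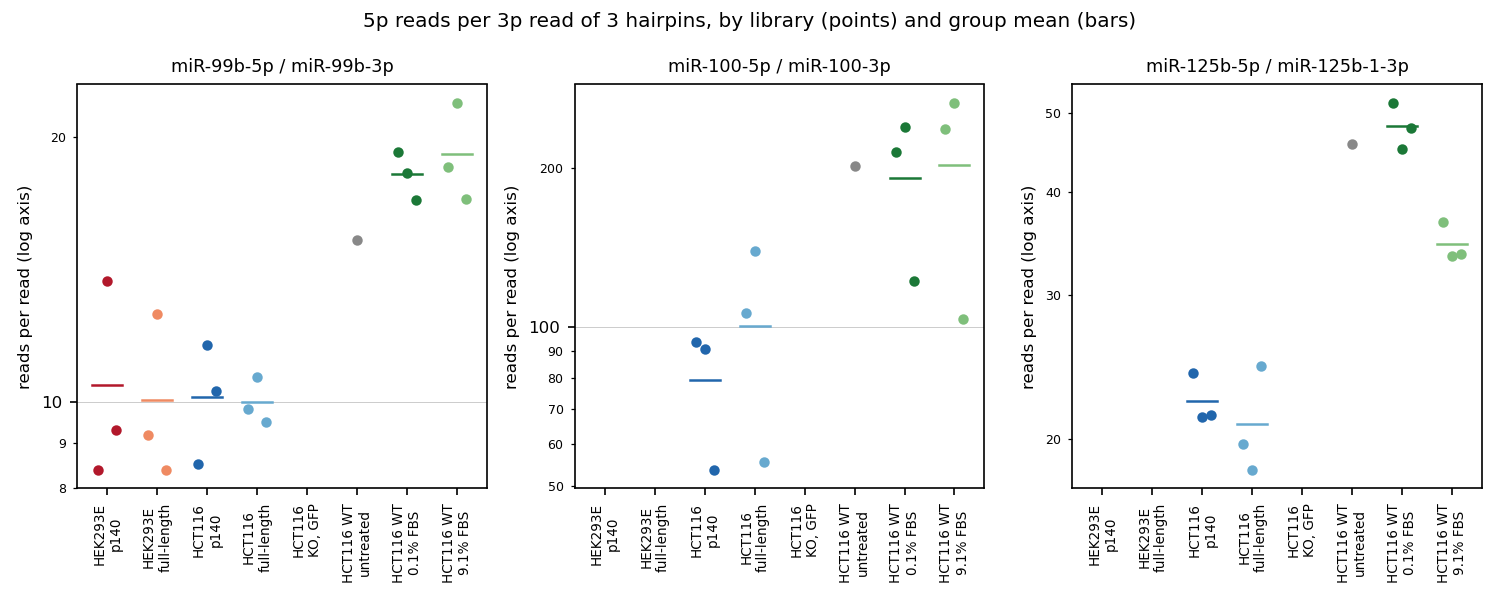
5p-arm reads per 3p-arm read (logarithmic vertical axis) of the miR-99b, miR-100 and miR-125b-1 hairpins, with points for libraries and bars for group means. Libraries with fewer than 5 reads of either arm are not drawn. miR-99b-5p per miR-99b-3p is 8.38 to 13.7 in rescued cells and 15.3 to 21.9 in wild-type HCT116.

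After TMM scaling miR-99a-5p, miR-100-5p, miR-125a-5p and miR-125b-5p were higher in 0.1% FBS, and the 2 arms of miR-99b were the members that were not called. In WT HCT116 cells kept in 0.1% FBS, miR-100-5p had 27924, 25974 and 23067 CPM, against 19044, 19613 and 14996 CPM in 9.1% FBS (0.93 ± 0.13, edgeR adjusted p = 7.5e-04). miR-125b-5p had 19129, 16363 and 14629 CPM in 0.1% FBS, against 11158, 11447 and 8648 CPM in 9.1% FBS (1.09 ± 0.14, adjusted p = 6.3e-04). The groups of neither overlapped, and overlap was not counted for all miRNAs.

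miR-125a-5p had 2390, 2171 and 1736 CPM in 0.1% FBS, against 1827, 1599 and 1132 CPM in 9.1% FBS, with 1 library of each group overlapping (0.87 ± 0.19, adjusted p = 0.0055). miR-99a-5p was low, with 27.7, 22.3 and 17.0 CPM in 0.1% FBS and 9.17, 16.6 and 10.9 CPM in 9.1% FBS (1.25 ± 0.29, adjusted p = 0.0087). That was 48 to 54 reads per library in 0.1% FBS and 16 to 31 in 9.1% FBS. miR-100-5p, which differs from it at 1 base, held 99.9% of their joint reads in both groups. miR-99a-3p had at most 1 read in any serum library. Misread miR-100-5p cannot be told apart from miR-99a-5p here, so this call is uncertain. miR-99b-5p had 1864, 1855 and 1553 CPM in 0.1% FBS, against 2428, 2272 and 1698 CPM in 9.1% FBS, with a log2 fold change of 0.13 ± 0.15 after TMM scaling (adjusted p = 0.52), and miR-99b-3p one of 0.20 ± 0.14 (adjusted p = 0.27).

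Counting the uncertain miR-99a-5p, 4 of 6 members were called, all higher in 0.1% FBS. Of 577 miRNAs 45.8% were called, 25.5% higher and 20.3% lower. The median of the members was 0.90 and that of all miRNAs -0.03. All 3 let-7 partners rose in 0.1% FBS, let-7e-5p by 0.80 ± 0.12, let-7a-5p by 0.71 ± 0.10 and let-7c-5p by 1.07 ± 0.20 (adjusted p = 0.0013, 6.9e-04 and 0.0031), and so did 4 of 5 tested other arms. These calls depend on the scaling: library totals lowered the median of all miRNAs by 0.41 and kept 3 members called, and the DROSHA-independent list left only miR-99b-5p called, at -0.50 (adjusted p = 0.041). The split of all calls was 55.7% higher with TMM, 22.7% with library totals and 8.33% with that list.

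The scaling-free ratios kept their order. miR-99b-5p over miR-125a-5p was 0.780, 0.855 and 0.895 in 0.1% FBS, against 1.33, 1.42 and 1.50 in 9.1% FBS, and miR-99b-5p over let-7e-5p was 0.720 to 0.836, against 1.09 to 1.29. miR-125b-5p over miR-125b-1-3p was 45.2 to 51.4 in 0.1% FBS, against 33.4 to 36.7 in 9.1% FBS. None of these groups overlapped, and each had p = 0.1, the smallest an exact permutation test can give here (adjusted p = 0.25). In the untreated WT library miR-99b-5p over miR-125a-5p was 1.04, between the serum groups. There miR-99b-5p over let-7e-5p was 0.722 and miR-125b-5p over miR-125b-1-3p was 45.7, both within the range of 0.1% FBS and outside that of 9.1% FBS. The label of this library gives no serum level, and whether these ratios mark low serum was not tested.

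In the KO library with GFP, 5 of the 6 members were detected and miR-99a-5p had 0 reads, which at this depth allows up to 78.4 CPM. miR-100-5p had 83 of 38288 reads with GFP, against 14533 of 856658 in untreated WT, and miR-125b-5p had 52 reads against 8917. miR-99b-5p had 13 reads with GFP against 1225 in untreated WT, and miR-125a-5p 11 against 1181. In CPM these 4 were 4.21-fold to 7.83-fold lower with GFP, and scaled to the DROSHA-independent list, which took most of the GFP library, they were 232-fold to 431-fold lower. Of 188 miRNAs with at least 100 reads in 1 of the 2 libraries 96.3% were more than 16-fold lower on that scale, so the members stood with nearly all others. miR-99b-3p had 1 read with GFP against 80 in untreated WT, a CPM ratio of 0.280 with a 95% counting interval of 0.00699 to 1.60. Each condition has 1 library, so these values have no replicate check and no test.

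With full-length DROSHA the members stood at different shares of their WT level in HCT116. As a share of mean CPM in WT cells in 9.1% FBS, miR-99b-5p stood at 113% and miR-125a-5p at 115% with full-length DROSHA, miR-100-5p at 64.5% and miR-125b-5p at 52.1%. With p140 the shares were 39.2%, 161%, 56.4% and 47.7%. Against the untreated WT library they were, in the same order, 169%, 127%, 68.0% and 52.1% with full-length DROSHA. With p140 they were 58.5%, 178%, 59.4% and 47.7% of that library. The share of miR-99b-5p thus depends on the WT reference. Medium, time, run and the rescue itself cannot be told apart here either. In edgeR 3 of 6 members differed between full-length rescue and WT cells in 9.1% FBS, where 58.5% of 566 miRNAs were called (28.8% higher and 29.7% lower): miR-99b-3p was higher by 1.11 ± 0.22 (adjusted p = 0.0014), and miR-100-5p and miR-125b-5p were lower, at -0.63 ± 0.14 (adjusted p = 0.0034) and -0.94 ± 0.13 (adjusted p = 2.0e-04). miR-99b-5p had 0.19 ± 0.21 (adjusted p = 0.45) and miR-125a-5p 0.20 ± 0.18 (adjusted p = 0.36). Scaled to the DROSHA-independent list, which lowered the median of all miRNAs by 1.97, all 6 were lower with full-length DROSHA, miR-99b-3p among them at -0.91. The colon epithelium markers, which summed to 448 to 487 CPM with full-length DROSHA and 30574 to 33609 CPM in 9.1% FBS, moved with this contrast, and their part in it was not tested.

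Across the 8 groups the members fell into different orders. miR-99a-5p averaged 3646 ± 798 CPM in HEK293E with full-length DROSHA and 2106 ± 97 CPM with p140 (SD, n = 3 each), with no overlap between them or with any HCT116 group, all at 22.3 CPM or less. miR-100-5p and miR-125b-5p were highest in 0.1% FBS (25655 ± 2444 and 16707 ± 2270 CPM), followed by 9.1% FBS and untreated WT, which overlapped. Rescued HCT116 came next for both. miR-99b-5p was highest in HEK293E with full-length DROSHA (4470 ± 1702 CPM) and, with GFP set aside, lowest in HCT116 with p140 (836 ± 79.8 CPM), and the groups from HEK293E with p140 down to 0.1% FBS each overlapped the next. miR-125a-5p ran, with GFP set aside, from 3705 ± 355 CPM in HEK293E with p140 to 1379 CPM in untreated WT, each group overlapping the next, and 287 CPM with GFP.

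The miRNAs whose group means were most like each member were found by Pearson's r of log2(CPM + 1) over the 8 groups, among 441 miRNAs with at least 100 CPM in 1 group or more. The 8 points share libraries, lines and depth, so r is a description. miR-99a-5p was nearest to miR-296-3p (r = 0.98), miR-296-5p (0.98) and miR-129-5p (0.97). miR-100-5p was nearest to miR-584-5p (0.98), miR-145-5p (0.97) and its own cluster's let-7a-2-3p (0.97), and miR-125b-5p to miR-151b (0.99), let-7f-5p (0.94) and let-7a-5p (0.93). miR-99b-5p was nearest to miR-374b-3p (0.99), miR-196a-5p (0.99) and miR-454-5p (0.98), and miR-99b-3p to miR-346 (0.98), miR-589-5p (0.97) and miR-628-5p (0.97). miR-125a-5p was nearest to miR-30c-5p (0.99), miR-126-5p (0.99) and miR-193a-3p (0.98), with 0.81 to its cluster neighbour miR-99b-5p.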

How the data were processed

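Small RNA libraries were made from TRIzol-extracted RNA after gel size selection, with randomized adaptors, and read on a MiSeq, per the labels' protocols. The submitters' processing notes name cutadapt, STAR, bedtools and hg38, without versions. The handling of mismatched or multiply mapped reads is not given in the sources used here. Each deposited table holds raw whole-number counts, one for each mature miRNA under each of its hairpins. RefSeq matched 2281 of 2588 names.

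The 6 members and the lists of let-7 partners, other arms and markers were chosen with earlier results of these data known, and every member is named. edgeR 4.0.16 (R 4.3.3) gave two-sided quasi-likelihood tests over all miRNAs, with TMM scaling, filterByExpr (minimum count 10) and Benjamini-Hochberg adjustment at 0.05. HCT116 rescue, HEK293E rescue, serum and rescue against WT had separate fits, and the line contrasts used 12 rescued libraries. Ratios used log2 of counts + 0.5 and exact permutation tests. The fits were also run on simulated data, but no result of that is given here, so it lends the calls no support. Intervals cover counting error only.

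Replicate numbers were taken as pairs in the p140, serum and rescue comparisons and not between the lines. In those comparisons every same-numbered pair's correlation of deviations was over 0.1 (0.15 to 0.68). For p140 in HEK293E and for rescue these pairs stood above all others. The rescue pairs join libraries of 2 separate experiments, so a shared number there has no basis in the design. Full-length replicate 2 had 0.15 with 9.1% FBS replicate 2, against 0.14 with replicate 1. In serum, 0.1% FBS replicate 2 had 0.48 with 9.1% FBS replicate 1, against 0.15 with replicate 2. In HCT116, p140 replicate 1 had 0.37 with full-length replicate 2, against 0.36 for the pair numbered 2. Pairing by number is thus not established for serum, for p140 in HCT116 or for rescue, so blocked values stand only beside the results they change. Alternatives were DESeq2 1.42.0, other scalings, no filter, the lowest copy, a joint fit of 18 libraries, the replicate block, leaving out each replicate and leaving out the replicates numbered 3.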

Additional observations from a re-analysis of the deposited data

How the results depend on the processing

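The call of miR-99b-5p and miR-99b-3p as lower with p140 in HCT116 held under all 14 alternatives, and the calls of miR-99a-5p and miR-100-5p between the lines under all 20. With the replicate block, 5 members were called for p140 in HCT116 and 1 for the difference between the lines, and among all miRNAs 326 in HCT116, 183 in HEK293E and 102 for the difference. Within replicate pairs the pooled ratios of miR-99b-5p to miR-125a-5p and to let-7e-5p no longer passed (adjusted p = 0.094 each, at the smallest p that 64 sign flips allow), and the other 4 ratios kept their side. The lack of overlap had fixed those 2 p-values, so they do not show an effect of pairing. The block changed no other call of a member in the paired comparisons. Without the replicates numbered 3 the members called were 5 in HCT116 and 0 in HEK293E, and among all miRNAs 366 in HCT116, 47 in HEK293E and 37 for the difference. Between the lines with p140 the joint fit gave 5 members and 348 of all miRNAs, against 285 in the fit of 12 libraries. Library totals gave 6 members in each line comparison, with 381 of all miRNAs for full-length DROSHA and 351 for p140, against 319 and 285. Scaled to the DROSHA-independent list, members called were 5 for p140 in HEK293E, 1 for serum and 6 for full-length rescue, and all miRNAs called were 170 for p140 in HCT116, 216 in HEK293E, 264 for serum, 459 for rescue and 0 for the difference.

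Leaving out each replicate gave 2 to 4 members and 184 to 388 of all miRNAs called for p140 in HCT116. In HEK293E it gave 1 to 3 members and 86 to 129 of all miRNAs. For the difference it gave 5 to 85 of all miRNAs, with 85 without HCT116 p140 replicate 3. The cause of these shifts was not tested. Of all calls, the share higher moved from 55.8% to 81.6% with library totals between the lines with full-length DROSHA and from 49.8% to 75.8% with p140. With the DROSHA-independent list it moved from 47.7% to 0% for p140 in HCT116, from 20.0% to 1.85% in HEK293E, from 49.2% to 3.92% for rescue, from 55.8% to 41.0% between the lines with full-length DROSHA and from 49.8% to 64.7% with p140.

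With library totals, miR-99b-5p, miR-99b-3p and miR-125a-5p stood at 0.89, 0.87 and 0.99 between the lines with full-length DROSHA, miR-125a-5p at 0.60 with p140, the serum values of miR-99b-5p and miR-99b-3p at -0.28 and -0.21, and the line differences of miR-100-5p and miR-125b-5p at -0.053 and -0.025. With the DROSHA-independent list, miR-125a-5p stood at -1.15 for p140 in HCT116, -0.57 in HEK293E, 0.010 between the lines with p140, 0.58 for the difference and -1.71 for rescue. The list also gave miR-99a-5p 0.81 for the difference and -1.76 for rescue, miR-99b-5p -0.50 for serum and -1.85 for rescue, and miR-99b-3p -0.43 for serum and -0.91 for rescue. The joint fit gave -0.048 for miR-99b-5p in serum, and for rescue -0.068 for miR-99b-5p, -0.040 for miR-125a-5p and -0.14 for miR-99a-5p. No filter gave -0.020 for miR-99a-5p in rescue, and leaving out the replicates numbered 3 gave -0.97 for it and -0.037 for miR-125a-5p. DESeq2 gave 0.058 for miR-125a-5p between the lines with full-length DROSHA and 0.029 for miR-125b-5p with p140 in HEK293E.

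Leaving out each replicate turned 10 values within these ranges: for p140 in HEK293E miR-100-5p (-0.25 to 0.0036), miR-125a-5p (-0.011 to 0.34) and miR-125b-5p (-0.18 to 0.020), for the difference miR-100-5p (-0.024 to 0.37) and miR-125a-5p (-0.38 to 0.031), between the lines with full-length DROSHA miR-99b-5p (-0.51 to 0.014), miR-99b-3p (-0.30 to 0.032) and miR-125a-5p (-0.18 to 0.075), for serum miR-99b-5p (-0.021 to 0.19) and for rescue miR-99a-5p (-0.87 to 0.54). The 38288 reads with GFP and the 3 to 21 reads of miR-99a-5p in rescued HCT116 libraries limit what their values can show.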

Other observations

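Summed over members with 1 seed, the miR-125 family had mean sums between 7023 and 7422 CPM in the rescued groups, with single libraries from 5770 to 8483 CPM. Between the lines such sums rest on the scaling, since CPM and TMM differ there by 1.02 (full-length DROSHA) and 0.92 (p140) in the median log2 fold change. miR-125a-5p and miR-125b-5p together had 7023 ± 351 CPM in HEK293E with p140, 7173 ± 1290 CPM in HEK293E with full-length DROSHA, 7422 ± 939 CPM in HCT116 with p140 and 7177 ± 256 CPM in HCT116 with full-length DROSHA (SD, n = 3 each). The WT sums were 18806 ± 2588 CPM in 0.1% FBS and 11937 ± 1868 CPM in 9.1% FBS. The 5p arms with the miR-99/100 seed together had 4700 ± 414 CPM in HEK293E with p140 against 8327 ± 2530 CPM with full-length DROSHA, and 10926 ± 426 CPM in HCT116 with p140 against 13955 ± 1658 CPM with full-length DROSHA, without overlap in either line. No test was made of these sums.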
